A study of Drosophila melanogaster with 3 samples.

Results

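The Mediator genes of Drosophila melanogaster were taken as the protein-coding genes whose symbol is MED followed by a number, together with kto, skd, Cdk8 and CycC, in the Ensembl annotation of assembly BDGP6. This gave 29 genes of the 13945 protein-coding genes on the 6 main chromosome arms. The gene ix, which encodes the MED29 subunit, falls outside the symbol rule and is described once beside the others. For each gene the binding summits of 1 tagged protein were described, at its promoter and along its body.

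Mediator is a large complex that sits between DNA-bound regulators and RNA polymerase II and takes part in the transcription of most protein-coding genes. Its subunits form a head and a middle module that contact the polymerase, a tail module that meets many sequence-specific activators, and a scaffold subunit, MED14, that holds these together. A separable kinase module made of Cdk8, CycC (cyclin C), kto (the fly MED12) and skd (the fly MED13) binds Mediator reversibly and limits its contact with the polymerase. In the fly, kto and skd are known from developmental phenotypes in the eye and the wing.

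The assay was chromatin immunoprecipitation followed by sequencing (ChIP-seq) of the CG13296 protein, which the annotation names Prdm13, a member of the PR domain family of zinc-finger proteins. There was 1 group and no contrast of genotype or treatment: transgenic flies that carry CG13296 fused at its C-terminal end to GFP (strain CG13296-GFP), sampled as whole embryos of mixed sex at 6 to 18 hours in 3 biological replicates, with chromatin sonicated to 200 to 800 bp. Each replicate was set against the same 1 control file. The sample description calls these libraries an input control, whereas the assay, antibody and derivation labels name them as the immunoprecipitated side, and the age tag holds an impossible number of hours, so the age was read from the source name. The sources used here do not give what drives the transgene, and all cell types of the embryo are mixed.

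The authors deposited a relaxed list of 30000 peaks for each replicate, a relaxed list of 30000 peaks for the pooled replicates, and a list of 5724 peaks kept by a threshold on the irreproducible discovery rate (IDR), here called the IDR list. A summit is the base of highest enrichment in a peak. A gene was called bound where a summit lay within 500 bp of any of its transcription start sites (TSSs), and its body was the rest of the gene. Ranks run from 1 at the highest deposited signal, and the rank of a peak in the IDR list equals its rank in the pooled list. The number of reads behind the lists is unknown, so strength is given only as a rank within 1 list. For each replicate, the 5724 peaks of highest signal were called its top list, so that a count could be given 3 times and its spread shown.

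The sequences that carry the description are shown before the values, on the strand of the gene and from the release 6 RefSeq genome (dm6 coordinates). They stop where an annotated exon begins. The summit windows of 6 bound members are shown. They are those of the strongest peaks (MED30, MED17, MED27 and MED25) and of the bound kinase module genes (Cdk8 and skd). The skd summit was nearer to the TSS of the neighbouring gene Pdss2, at −47 bp, than to that of skd, at −434 bp. Capitals mark CACGTG in MED17 and matches to the promoter element Ohler 7 in MED25, Cdk8 and skd, and no letters in MED30 and MED27. MED30 is at chr3L:654155-654355, minus strand. MED17 is at chr3R:18188825-18189025, plus strand. MED27 is at chr3R:5654903-5655103, plus strand. MED25 is at chr3R:20008730-20008930, plus strand. Cdk8 is at chr3L:9838671-9838823, minus strand. The window of skd is at chr3L:21027768-21027914, minus strand.
MED30: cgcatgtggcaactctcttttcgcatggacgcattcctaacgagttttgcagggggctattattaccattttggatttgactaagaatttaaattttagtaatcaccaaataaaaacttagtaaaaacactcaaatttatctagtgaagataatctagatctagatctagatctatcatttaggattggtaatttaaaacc
MED17: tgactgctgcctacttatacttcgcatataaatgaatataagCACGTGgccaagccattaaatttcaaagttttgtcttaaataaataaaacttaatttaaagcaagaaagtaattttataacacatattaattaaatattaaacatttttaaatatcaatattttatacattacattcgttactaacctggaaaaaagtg
MED27: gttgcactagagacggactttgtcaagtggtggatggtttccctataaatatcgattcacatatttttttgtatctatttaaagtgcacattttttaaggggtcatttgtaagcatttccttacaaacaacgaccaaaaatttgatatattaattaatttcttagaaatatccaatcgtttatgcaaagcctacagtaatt
MED25: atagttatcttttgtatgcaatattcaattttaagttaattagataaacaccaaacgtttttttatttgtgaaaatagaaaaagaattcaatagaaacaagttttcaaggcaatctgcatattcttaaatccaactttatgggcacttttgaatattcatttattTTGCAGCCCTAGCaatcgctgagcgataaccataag
Cdk8: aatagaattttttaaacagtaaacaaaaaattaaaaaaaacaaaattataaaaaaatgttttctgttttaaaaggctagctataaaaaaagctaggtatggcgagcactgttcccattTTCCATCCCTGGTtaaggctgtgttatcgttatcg
skd: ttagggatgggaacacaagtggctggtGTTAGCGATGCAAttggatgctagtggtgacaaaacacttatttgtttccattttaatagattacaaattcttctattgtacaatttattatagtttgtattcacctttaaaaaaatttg

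A further set of 3 stretches, directly upstream of the TSS of members without an IDR summit, shows promoter elements that the unbound members held. Capitals mark the DNA replication-related element TATCGATA (DRE) and an Ohler 7 match in MED18, DREs in MED28, and the core GGTCACACT of the site of the promoter factor M1BP in MED11. MED18 is at chrX:1865836-1865908, MED28 at chr3R:25476916-25477002 and MED11 at chr3L:18745756-18745855, all on the plus strand.
MED18: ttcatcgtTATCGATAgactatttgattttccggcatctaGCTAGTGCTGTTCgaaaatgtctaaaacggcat
MED28: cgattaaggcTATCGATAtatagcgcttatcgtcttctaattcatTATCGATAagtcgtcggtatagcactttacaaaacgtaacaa
MED11: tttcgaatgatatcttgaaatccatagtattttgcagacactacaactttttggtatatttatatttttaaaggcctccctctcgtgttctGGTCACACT

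Of the 29 Mediator genes, 13 (44.8%, exact 95% interval 26.4 to 64.3) had a promoter summit in the IDR list, against 23.3% of all protein-coding genes. The bound members were MED6 and MED17 of the head, MED4, MED7, MED19, MED26 and MED31 of the middle, MED16 and MED25 of the tail, MED27 and MED30, which join head and tail in animals, and Cdk8 and skd of the kinase module. In the top lists, 12, 11 and 13 members were bound in replicates 1, 2 and 3, or 12 ± 1 (SD, n = 3), which is 41.4% ± 3.45 of the 29. The same share over all protein-coding genes was 23.1%, 23.1% and 23.7% in replicates 1, 2 and 3. The exact 95% intervals of the members' shares were 23.5 to 61.1% in replicate 1, 20.7 to 57.7% in replicate 2 and 26.4 to 64.3% in replicate 3, so that of replicate 2 holds the background share and that of replicate 1 begins just above it. These intervals cover counting error only, and the SD holds the spread between replicates of the same 29 genes, not that between genes. The members share summits and neighbours with other genes and were proposed with results of these data known, so no test was made of the difference.

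The relaxed lists, which also hold background peaks, showed less distance between the members and all genes. In the pooled relaxed list 18 members (62.1%, interval 42.3 to 79.3) had a promoter summit, against 49.3% of all protein-coding genes. A relaxed promoter summit in all 3 replicates was found at 15 members (51.7%, interval 32.5 to 70.6), against 39.1% of all protein-coding genes. Both background shares lay within the members' intervals.

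Every module other than the single scaffold gene held bound and unbound members. The head had 2 bound of 7, the middle 5 of 9, the tail 2 of 5, the subunits that join head and tail in animals 2 of 3, and the kinase module 2 of 4. MED14, the scaffold, had no promoter summit in any list. The modules hold too few genes for their shares to be told apart.

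**Figure D1:**
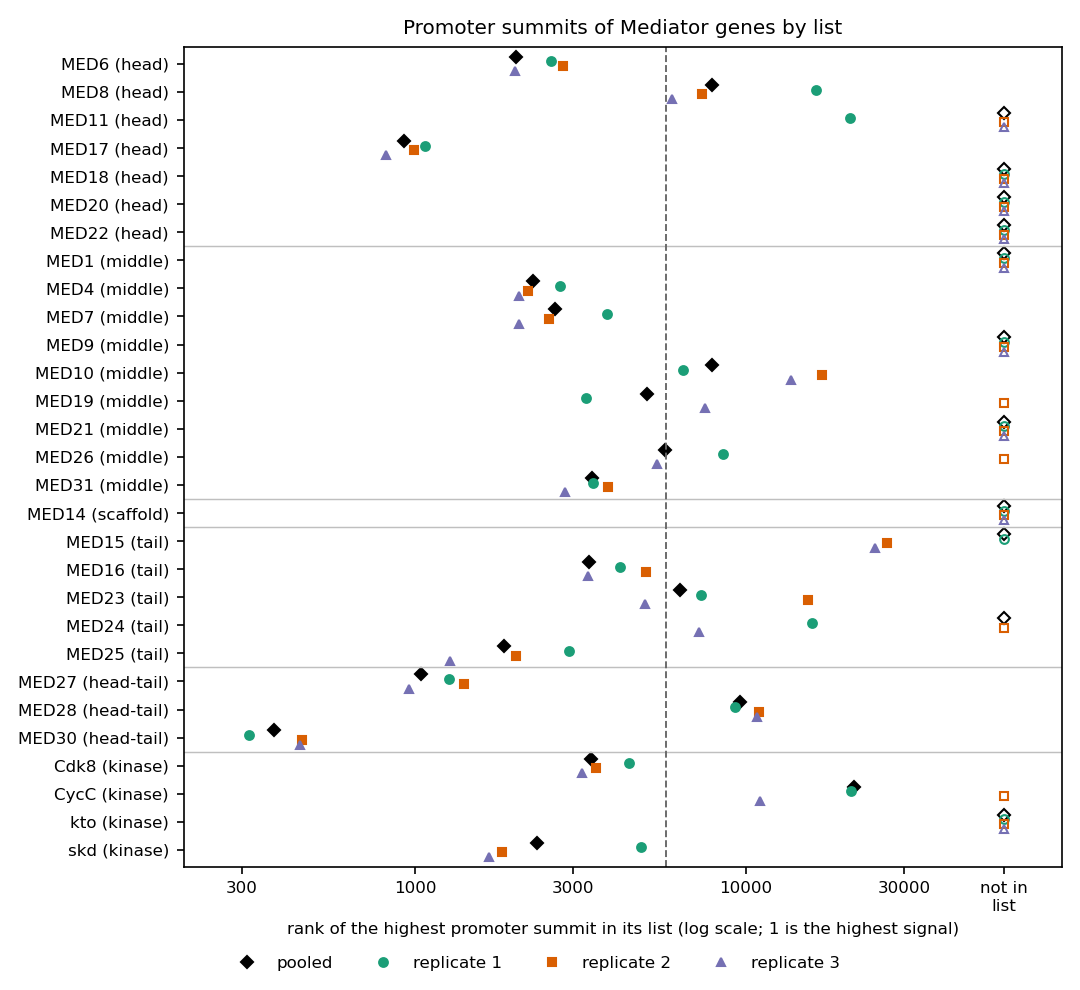
Rank of the highest promoter summit of each of the 29 Mediator genes, with a row for each gene, grouped by module, in the pooled list (black diamonds) and in replicates 1, 2 and 3 (coloured symbols), on a log axis where 1 is the highest signal. Open symbols at the right mark lists without a promoter summit of the gene, and the dashed line is rank 5724, the size of the IDR list. Symbols of MED30, MED17 and MED27 sit close together at the left, whereas 8 genes have open symbols only.

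The strongest promoter summit of the set belonged to MED30 (FBgn0035149, chr3L:652987-654089, minus strand), a subunit found in animals and not in budding yeast. It ranked 374 in the IDR list and 314, 454 and 450 in replicates 1, 2 and 3. The summit lay at −166 bp from the TSS (negative is upstream), and at −161, −185 and −172 bp in replicates 1, 2 and 3, a mean of −173 ± 12 bp (SD, n = 3). All 3 replicates thus placed it near the top of their lists and at nearly the same base.

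MED17 (FBgn0038578, chr3R:18189072-18191265, plus strand), a central subunit of the head, ranked 923 in the IDR list and 1075, 995 and 819 in replicates 1, 2 and 3. Its summit lay 147 bp upstream, with a mean over replicates of −159 ± 32.6 bp (SD, n = 3). MED27 (FBgn0037359, chr3R:5655139-5656336, plus strand) ranked 1045 in the IDR list and 1263, 1409 and 958 in replicates 1, 2 and 3. Its summit lay 136 bp upstream, with a mean of −125 ± 15.6 bp (SD, n = 3). MED17 ranked above MED27 in each replicate, although the ranges of their ranks overlapped.

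MED25 (FBgn0038760, chr3R:20008947-20011712, plus strand), a tail subunit known in human cells as the target of the viral activator VP16, ranked 1850 in the IDR list and 2927, 2024 and 1271 in replicates 1, 2 and 3. Its summit lay 117 bp upstream, and the highest summit of each replicate at a mean of −137 ± 63.6 bp (SD, n = 3), with replicate 3 at −210 bp. Replicate 1 also had a second MED25 summit in its top list, at −336 bp with rank 3094. MED6 (FBgn0024330, chr3R:9766031-9768984, minus strand), a conserved head subunit, ranked 2020 in the IDR list and 2573, 2807 and 2008 in replicates 1, 2 and 3. MED6 has 5 TSSs, and its summit lay 9 bp upstream of the most downstream of them, inside the 5′ UTR of the longer transcripts. The position of MED6 was held within a few bases, at −12 ± 7 bp (SD, n = 3).

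Ranks in the middle of the IDR list were held by MED4, MED7, MED16 and MED31. MED4 (FBgn0035754), a middle subunit, ranked 2271 in the IDR list and 2738, 2199 and 2062 in replicates 1, 2 and 3, with its summit at −157 ± 8.33 bp over replicates (SD, n = 3). MED7 (FBgn0051390), which with MED21 forms the hinge of the middle module in yeast, ranked 2654 in the IDR list and 3811, 2547 and 2060 in replicates 1, 2 and 3. The highest MED7 summit lay at −49, −81 and −4 bp in replicates 1, 2 and 3. Replicate 3 also had a second MED7 summit in its top list, at −206 bp with rank 3436. MED16 (FBgn0034707), of the tail, ranked 3348 in the IDR list and 4163, 4982 and 3329 in replicates 1, 2 and 3, at −110 ± 25.5 bp (SD, n = 3). MED31 (FBgn0037262), a small conserved middle subunit, ranked 3425 in the IDR list and 3447, 3825 and 2838 in replicates 1, 2 and 3, at −188 ± 46.0 bp (SD, n = 3). All 4 genes were in the top list of every replicate.

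Of the kinase module, Cdk8 (FBgn0015618, chr3L:9837080-9838670, minus strand), the kinase itself, ranked 3410 in the IDR list and 4423, 3532 and 3185 in replicates 1, 2 and 3. Its summit lay 53 bp upstream, with a mean of −85.0 ± 57.5 bp (SD, n = 3). CycC, the cyclin that pairs with Cdk8, had no IDR summit: it ranked 21129 in the pooled list, 20749 in replicate 1 and 11033 in replicate 3, and had no promoter summit in replicate 2. For kto no promoter summit was found in any list, and the nearest pooled summit was 2626 bp from a TSS. The kinase module was thus bound at Cdk8 and skd, and neither CycC nor kto reached the IDR list.

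MED19 and MED26 were the least reproducible of the bound members. MED19 (FBgn0036761), a middle subunit that acts as a cofactor of Hox proteins in the fly, ranked 5012 in the IDR list, 3288 in replicate 1 and 7520 in replicate 3, and had no promoter summit in replicate 2. MED26 (FBgn0039923, on chromosome 4), which in human cells helps to recruit elongation factors, ranked 5700 in the IDR list, 8498 in replicate 1 and 5380 in replicate 3, and likewise had none in replicate 2. Both summits lay downstream of a TSS, at 81 bp for MED19 and 134 bp for MED26, inside the 5′ UTR of the gene. The other 11 bound members were in the top list of all 3 replicates, and each of their IDR promoter summits lay upstream of the nearest TSS of the gene.

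The 16 members without an IDR promoter summit fell into 3 groups. In the relaxed lists of all 3 replicates, 4 had a promoter summit. MED23, a tail subunit that meets signal-dependent activators in mammalian cells, ranked 6327 in the pooled list and 7302, 15390 and 4949 in replicates 1, 2 and 3, so it was in the top list of replicate 3 alone. MED8, of the head, ranked 7894 in the pooled list and 16289, 7342 and 5976 in replicates 1, 2 and 3. MED10, of the middle, ranked 7913 in the pooled list and 6443, 16948 and 13677 in replicates 1, 2 and 3. MED28 ranked 9597 in the pooled list and 9280, 10906 and 10806 in replicates 1, 2 and 3. MED28 had the most similar ranks of these 4 across replicates, all of them outside the top lists.

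A relaxed promoter summit in only 1 or 2 replicates was found at 4 members, CycC among them. MED11, of the head, ranked 20668 in replicate 1. MED24, of the tail, ranked 15821 in replicate 1 and 7204 in replicate 3. MED15, the tail subunit bound by SREBP in human cells and by Gcn4 in yeast, ranked 26569 in replicate 2 and 24469 in replicate 3. The remaining 8 members, MED18, MED20 and MED22 of the head, MED1, MED9 and MED21 of the middle, MED14 and kto, had no promoter summit in any replicate list, and their nearest pooled summits were 2626 to 9982 bp away.

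MED15 also shows what the 500 bp limit does. An IDR summit lay 552 bp upstream of its TSS, just outside the limit, and ranked 349 in the IDR list and 323, 393 and 406 in replicates 1, 2 and 3. That peak ranked above the MED30 peak in the IDR list and in replicates 2 and 3, and below it in replicate 1. It was 261 bp from the TSS of CG4297, which was the nearest TSS. Just inside the limit was skd, whose summit lay at −434 bp. With a limit of 1000 bp, 14 members were bound against 27.1% of all protein-coding genes, and with 200 bp, 12 were bound against 17.0%.

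The bound members' summits lay where promoter summits of the whole list lay. Of the 13 IDR promoter summits, 11 were upstream of the nearest TSS of the gene, with a median of −117 bp and a range of −434 to 134 bp. Over all bound protein-coding genes the median was −119 bp and 79.2% were upstream. The medians of the members in the top lists of replicates 1, 2 and 3 were −137, −128 and −133 bp, a mean of −133 ± 4.51 bp (SD, n = 3). The members' median rank in the IDR list was 2333, against 2415.5 for all bound protein-coding genes. Of the 13 members, 8 ranked within the 2862 highest peaks of the IDR list, as did 57.8% of all bound protein-coding genes.

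**Figure D2:**
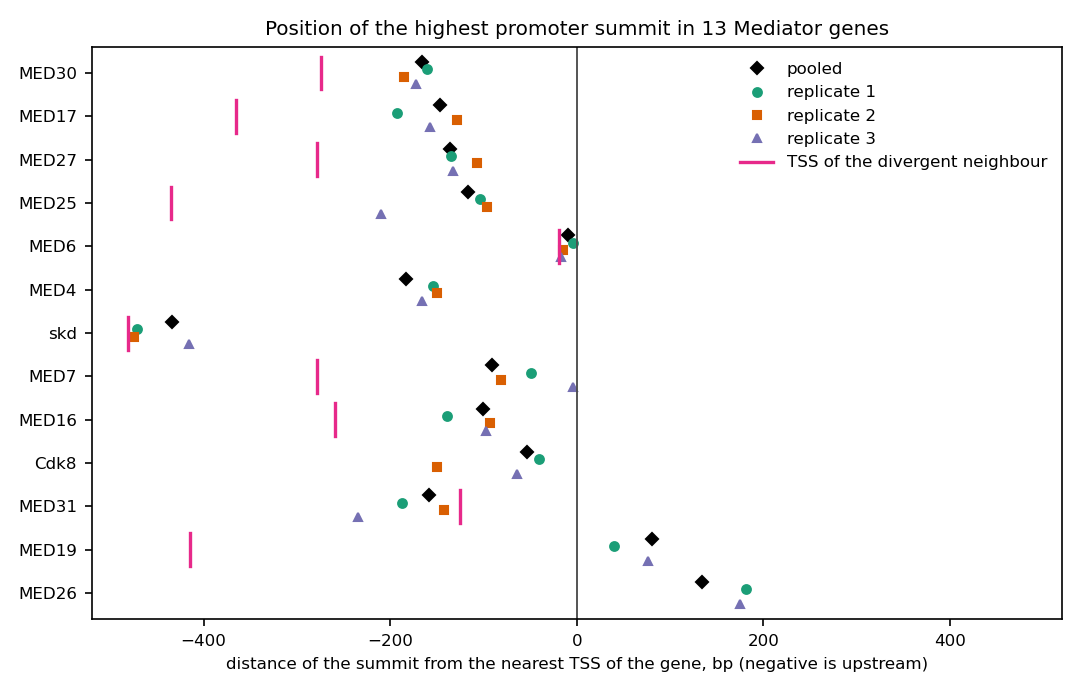
Distance in bp of the highest promoter summit from the nearest TSS of its gene for the 13 bound Mediator genes, ordered by rank, in the pooled list and in replicates 1, 2 and 3, with the TSS of the divergent neighbour as a vertical bar where there is one. Of the pooled summits 11 lie left of the TSS, and for 8 genes the summit lies between the TSS and the bar.

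Most Mediator genes stand back to back with another gene. A protein-coding TSS on the opposite strand lay within 500 bp upstream of 19 of the 29 members (65.5%), against 27.4% of all protein-coding genes. The trait is not particular to Mediator. Of the gene lists set beside it below, 21 of 32 proteasome genes and 25 of 43 general transcription machinery genes had such a neighbour. Among these 19 divergent members, 10 (52.6%, interval 28.9 to 75.6) were bound, against 40.6% of all divergent protein-coding genes. Of the 10 members with no such neighbour, 3 (30%, interval 6.67 to 65.2) were bound, against 16.7% of such genes. Among members with 1 TSS, 10 of 24 (41.7%) were bound, against 17.1%, and among those with more, 3 of 5 (60%), against 40.2%. With 1 TSS and a divergent neighbour 8 of 17 members (47.1%) were bound, against 34.6%, and with 1 TSS and no such neighbour 2 of 7 (28.6%), against 11.1%. Within each of these groups the members' share was the higher. In each group split by neighbour, the background share lay inside the members' interval. For all members with 1 TSS the interval, 22.1 to 63.4%, began above the background share of 17.1%. For those with more it was 14.7 to 94.7% and held the background share of 40.2%. These differences were not tested. In all 19 pairs the member and its neighbour had the same call, as did 93.7% of the 3990 such pairs over all protein-coding genes. A summit between TSSs under 500 bp apart counts for either gene, so the windows largely set this agreement.

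A summit between back-to-back TSSs cannot be assigned to either gene. Of the 13 IDR summits, 10 lay within 500 bp of a TSS of another protein-coding gene. MED30 shared its summit with Rev1, a translesion DNA polymerase, whose TSS was the nearer, at 108 bp. MED17 shared its summit with CG12321, MED27 with elm and MED16 with CG11170. The MED19 summit was not between the TSSs: it lay 81 bp downstream of that of MED19 and at −496 bp from that of CG7430. MED7 shared its summit with Cap-H2, a condensin II subunit, and MED25 with Hs6st, which sulfates heparan sulfate. MED6 shared its summit with Naa80, whose TSS lay 19 bp from that of MED6. MED31 shares its TSS with slx1, and its summit was nearest to the TSS of CG9775, inside the 5′ UTR of that gene. The summit of MED4 lay in an exon of the antisense RNA asRNA:CR43470 and within 500 bp of no other protein-coding TSS. Only for MED4, MED26 and Cdk8 was no other protein-coding TSS within 500 bp.

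Bound members with a divergent neighbour mostly stood farther from it than unbound ones. Where it was 200 to 500 bp, 8 of 9 members were bound, against 45.2% of all protein-coding genes with such a distance, and where it was under 200 bp, 2 of 10 were. By steps of 100 bp, 1 of 7 members was bound at 0 to 99 bp, against 35.7% of all such genes, and 1 of 3 at 100 to 199 bp, against 31.1%. At 200 to 299 bp, 4 of 4 members were bound, against 45.6%. At 300 to 399 bp the only member was bound, against 49.5%, and at 400 to 500 bp 3 of 4 were, against 38%. The exceptions were MED6 at 19 bp and MED31 at 125 bp, which were bound, and MED8 at 464 bp, which was not. These steps, and with them the 200 bp cut, were chosen after the values were seen. Over all protein-coding genes the bound share stayed between 31.1% and 49.5% in every step.

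**Figure D3:**
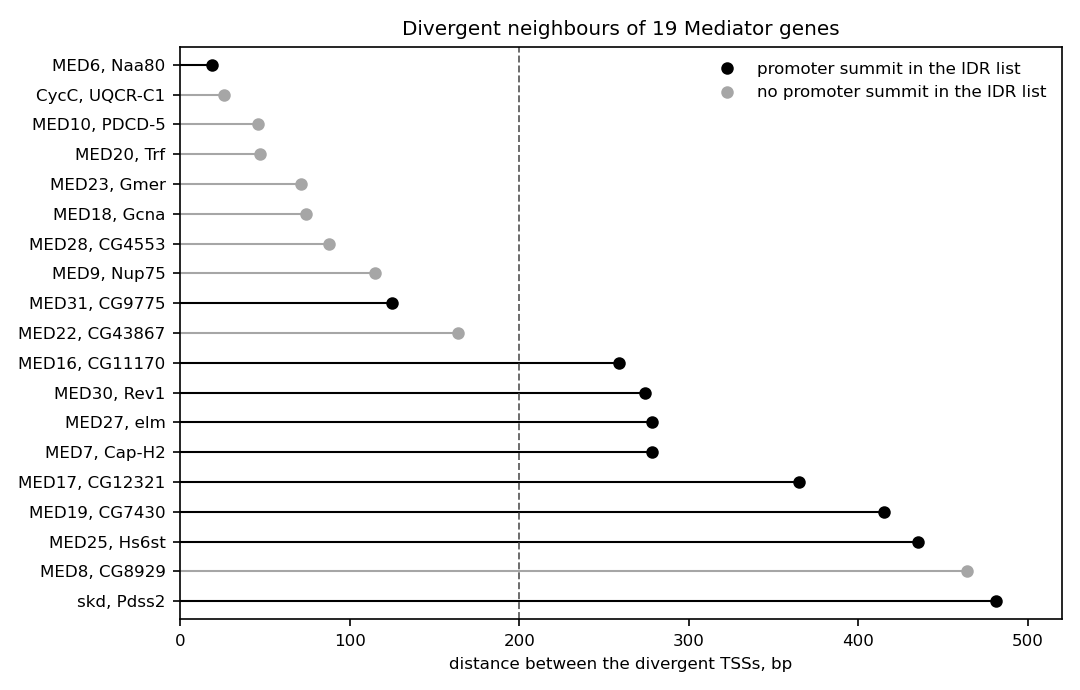
Distance in bp between the TSS of each of 19 Mediator genes and the TSS of its divergent protein-coding neighbour, named after it, ordered from short to long. Black marks members with a promoter summit in the IDR list and grey those without, and the dashed line is 200 bp, a cut chosen after the values were seen. To its right 8 of the 9 members are black, and to its left 2 of the 10. Over all protein-coding genes 45.2% were bound at 200 to 500 bp, 31.1% at 100 to 199 bp and 35.7% at 0 to 99 bp.

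Along the gene bodies, skd stood alone. It was the only member with a body summit in the IDR list (3.45% of 29, interval 0.0873 to 17.8), against 9.59% of all protein-coding genes. It was also the only one in the pooled relaxed list, against 23.3%. Most Mediator genes are short, with a median length of 1330 bp against 2166 bp for all protein-coding genes, and skd, at 34621 bp, is the longest. Of the protein-coding genes at least as long as skd, 55.9% had a body summit in the IDR list, whereas of those no longer than MED26, the next longest member at 10463 bp, 4.21% did.

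The gene skd (FBgn0003415, chr3L:20992814-21027434, minus strand) encodes the subunit that links the kinase module to the rest of Mediator. Its promoter summit ranked 2333 in the IDR list and 4819, 1828 and 1675 in replicates 1, 2 and 3. That summit lay at −434 bp from the upstream TSS of skd and at −47 bp from the TSS of Pdss2, an enzyme subunit of ubiquinone synthesis. The inner TSS of skd had a weaker pooled summit 8 bp upstream, at rank 6271, just outside the IDR list. In the body, 7 pooled summits were found, 6 in introns and 1 in the 5′ UTR, and 5 of the 7 had a relaxed summit within 200 bp in all 3 replicates. The strongest lay in an intron 17601 bp from the upstream TSS, with rank 3932 in the IDR list and 4086, 3171 and 5850 in replicates 1, 2 and 3. The other body summit in the IDR list lay in the 5′ UTR, 2259 bp from the upstream TSS, with rank 5211 in the IDR list and 12231, 6466 and 3754 in replicates 1, 2 and 3. Neither was in the top list of all 3 replicates, so the body summits of skd were weaker than its promoter summit in that respect.

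**Figure D4:**
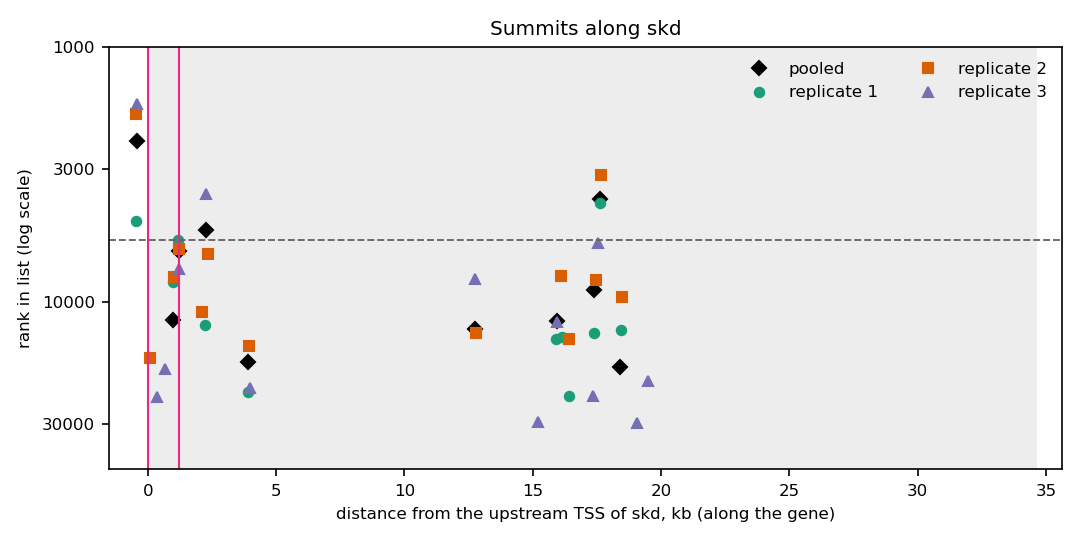
Rank of each summit at skd (log axis, 1000 at the top) against its distance in kb from the upstream TSS, for the pooled list and replicates 1, 2 and 3. Vertical lines are the TSSs of skd, grey shading its gene body, and the dashed line rank 5724: the promoter summit and the intron summit at 17601 bp are the only places where symbols of 3 or more lists reach above it.

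Body summits of other members were scattered and low. MED20 had a relaxed summit in its 3′ UTR at rank 11147 in replicate 1 and 29784 in replicate 3. MED26 had relaxed body summits in each replicate list, at places that no 2 replicates shared, and MED16 had 1 in replicate 2. None of these was in the pooled list.

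Promoter elements were counted within 100 bp of any TSS of a gene, on either strand, and a match is a description of letters only. The M1BP core GGTCACACT was in 9 of 29 Mediator promoters (31.0%), against 5.85% of all protein-coding promoters. Of those 9 members only MED19 was bound, against 31% of all genes with that core, and the unbound ones were MED8, MED11, MED20, MED22, MED10, MED15, MED23 and MED24. Ohler 7 was in 8 members (27.6%), against 8.95% of all. Of these 8, 7 were bound, namely MED17, MED7, MED31, MED16, MED25, MED27 and Cdk8, against 40% of all genes with that element, and MED18 was not. The DRE, TATCGATA, which is bound by DREF, was in 6 members (20.7%), against 8.49% of all. Of these 6, MED17, MED25 and MED26 were bound and MED8, MED18 and MED28 were not, beside a bound share of 34.4% over all genes with a DRE. M1BP cores were thus found mostly at unbound members, Ohler 7 mostly at bound members and DREs equally at either, in counts too small to be read further.

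The other elements stood near or below their shares in all promoters, apart from Ohler 6. The DRE core CGATA, which is also the site of BEAF-32 and overlaps the DRE, was in 13 members (44.8%), against 44.7% of all. TATAAA was in 11 members (37.9%), against 34.1%. The Initiator, TCAGTC or TCAGTT, was in 6 members (20.7%), against 36%, and GAGAG, the core of the GAGA factor site, in 5 (17.2%), against 28.7%. The E-box CAGCTG was in 4 members (13.8%), against 17.4%, and CACGTG in MED26 alone (3.45%), against 3.69%. Ohler 6 was in MED11 and MED20 (6.9%), against 1.91%.

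Under the summits themselves, within 100 bp on each side, Ohler 7 was at 5 of the 13 member summits (38.5%), those of MED7, MED16, MED25, Cdk8 and skd, against 7.72% of the 2837 IDR summits at protein-coding promoters. CACGTG was at the summit of MED17, against 2.5%, and is the capital stretch in the sequence of MED17. A DRE was at the summit of MED7 only, against 5.99%, and the M1BP core at that of MED19 only, against 2.43%. CGATA was at 4 member summits (30.8%), against 34.5%, and TATAAA at 4, against 34.5%. GAGAG was at the summit of MED30 alone, against 25.9%, and CAGCTG at that of Cdk8 alone, against 12.9%. The Initiator was at the summits of MED6 and MED19, against 19.7%, and Ohler 6 at none, against 0.846%. The summit windows of the members had a median GC content of 31.8%, with the lowest value of 23.9% at MED17 and a highest of 52.7%, against a median of 36.8% over all promoter summits.

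Mediator was read beside the genes of the machinery it works with. In the IDR list 13 of 29 Mediator genes (44.8%) were bound, against 14 of 43 machinery genes (32.6%). These were 5 of 12 RNA polymerase II subunit genes (41.7%) and 5 of 15 genes of TFIID, which holds the TATA-binding protein (33.3%). The rest were 4 of 16 other general transcription factor genes (25%). Taf10 and Taf10b of TFIID shared the same peak, at rank 3366, which counts for both. In the top lists the Mediator share was 41.4% ± 3.45, against 38.0% ± 4.84 for the machinery genes together (SD, n = 3 each), of which 17, 14 and 18 were bound in replicates 1, 2 and 3. The proteasome, a complex of similar size that is also made in every cell, had 9 of 32 genes (28.1%) bound and 26.0% ± 4.77 over the top lists (SD, n = 3). Over the top lists the polymerase genes had 33.3% ± 8.33, TFIID 40.0% ± 6.67 and the other factors 39.6% ± 3.61 (SD, n = 3 each). The exact interval of the Mediator share in the IDR list, 26.4 to 64.3%, holds the proteasome share and those of the polymerase and TFIID genes. The share of the other factors, 25%, lies just below it. That share rests on 4 of 16 genes and has counting error of its own, for which no interval was computed. Whether it differs from the Mediator share was not tested, and in the top lists the 2 were close, at 39.6% and 41.4%. A relaxed promoter summit in all 3 replicates was found at 15 of 29 Mediator genes (51.7%), against 19 of 43 machinery genes (44.2%) and 16 of 32 proteasome genes (50%). Mediator and the proteasome were thus nearly level in this count, beside 39.1% of all protein-coding genes. In the pooled relaxed list they were not compared.

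Among the named genes of those groups only Ssl1 ranked above MED30, which stood at 374 in the IDR list. Ssl1, a subunit of TFIIH, ranked 31 in the IDR list, and TfIIB and Xpd ranked 2157 and 2524. For TFIID, Taf5 ranked 455, Taf2 541 and Taf11 3290, and for the polymerase, Polr2B ranked 604, Polr2J 1506 and Polr2F 1860. For the proteasome, Rpn11 ranked 1825, Rpn12 2262 and Rpn3 2712. Of these genes, Xpd had no promoter summit in replicate 1 and Polr2J had none in replicate 2. The others had a promoter summit in every replicate. The MED29 gene ix had no IDR summit; it ranked 11892 in the pooled list and 24227, 19643 and 9573 in replicates 1, 2 and 3.

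**Figure D5:**
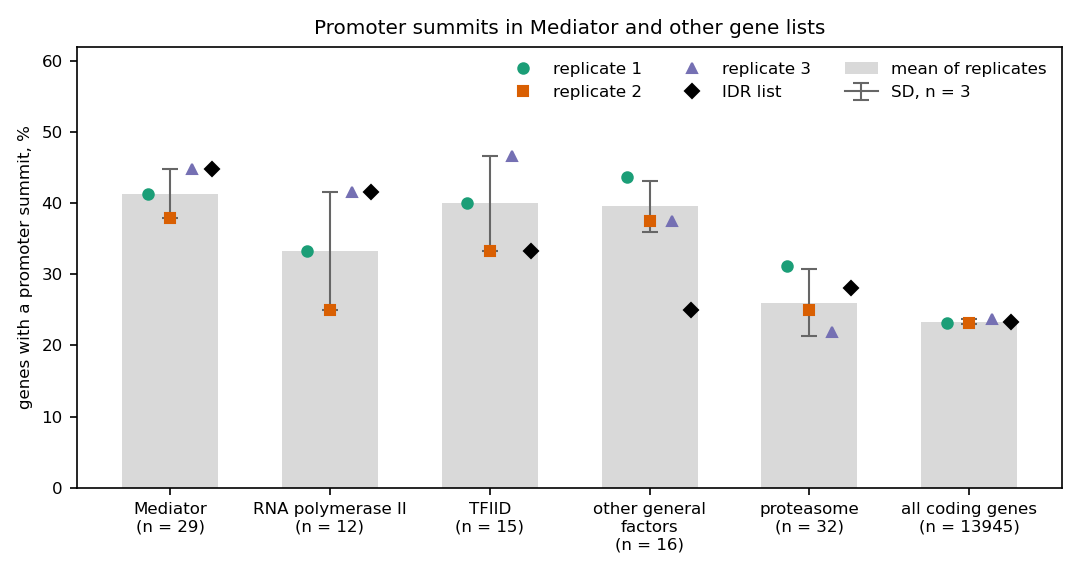
Percent of genes with a promoter summit in Mediator, 3 lists of the general transcription machinery, the proteasome and all protein-coding genes. Bars are the mean of the 3 replicate top lists with SD (n = 3), coloured symbols the replicates and black diamonds the IDR list: the Mediator replicates lie between 37.9% and 44.8%, above all protein-coding genes at 23.1% to 23.7%.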

How the data were processed

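All 3 replicates of the 1 group were used. The authors deposited relaxed peak lists per replicate and pooled, and the IDR list, on build dm6; each replicate was set against 1 shared control file, per the deposited derivation records. Aligner, peak caller, IDR threshold and depth are not given in the sources used here. The deposited signal value, on an unstated scale, was used to rank peaks inside a list and for nothing else. A −log10 q-value column, also deposited, was left out since all IDR peaks share its highest value. The deposited offset of the summit, in bases from the start of the peak, was turned into a 1-based position.

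Genes and TSSs came from Ensembl 115 (BDGP6.54) and sequence from the release 6 genome; the annotated start codon read ATG in 99.6% of 10246 genes with 1 TSS, a check of build. The members, lists and comparisons were chosen with earlier results of these data known. The count of bound members was set beside the share over all protein-coding genes, without a test, and exact (Clopper-Pearson) 95% intervals cover counting error only. Replicates are separate biosamples per the labels. Every member was named; of the other gene lists, those with the 3 highest signals. The symbol Tfb2 had no match. A divergent neighbour is a protein-coding TSS on the opposite strand within 500 bp upstream. Assignment of summits was tested on simulated data. Alternatives covered distances of 200 and 1000 bp, the most upstream TSS only, stricter peak sets, peak intervals and each replicate left out. For the IDR list, leaving a replicate out meant keeping the IDR peaks supported by the top lists of the remaining replicates. Work was done in Python 3.11.15 with numpy 2.4.6, pandas 2.3.3, scipy 1.17.1 and matplotlib 3.10.9.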

Additional observations from a re-analysis of the deposited data

How the results depend on the processing

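The IDR count of bound Mediator genes, 13 of 29, against 23.3% of all protein-coding genes, became 12 within 200 bp (against 17.0%), 14 within 1000 bp (27.1%; MED15 added), 14 by peak interval (24.9%) and 11 with only the most upstream TSS (20.7%). It was 11 among IDR peaks supported within 200 bp by the top lists of all 3 replicates (16.0%), MED19 and MED26 being lost. The IDR list itself was not rebuilt without a replicate. Instead, each replicate in turn was left out of this support, which was asked of the remaining top lists only. The count was again 11 each time (17.6 to 18.2%), with the same members lost. Among the 2862 highest IDR peaks it was 8, against 13.5% of all protein-coding genes, and among the 2862 highest peaks of each replicate the mean was 7.33, against 13.6%; fewer peaks were used there. The mean over top lists was 11.5 to 12.5 with a replicate left out, against 23.1 to 23.4% of all protein-coding genes. The relaxed count, 15 in all 3 replicates (39.1%), was 15 to 19 when asked of the remaining replicates only (42.1 to 44.5%). The gene body count was 1 (skd), against 9.59% of all protein-coding genes. It became 0 in the 2862 highest IDR peaks (5.82%) and 0 with support in all 3 replicates (7.07%). It ranged from 0 to 1 when a replicate was left out of the support (7.52 to 7.85%). The median position, −117 bp, became −141.5 bp in the 2862 highest peaks (n = 8) and −91 bp from the nearest protein-coding TSS of any gene. It was −136 bp with support in all 3 replicates, and likewise with each replicate left out of the support (n = 11). No paired analysis was possible because there is 1 group. Depth is unknown, so absence from a list cannot be read as absence of binding.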
